A study of Mus with 4 samples.

Results

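The cytochrome P450 genes examined here are the 89 RefSeq protein-coding genes of the mouse genome build GRCm38 whose symbol is Cyp, a family number, a subfamily letter and a gene number, out of 21883 protein-coding genes. Cyp2e1, Cyp1a2 and Cyp2f2 were left out by that rule. The 89 genes belong to 36 subfamilies on 14 chromosomes, and 62 of them sit in 7 gene clusters of 3 or more neighbours less than 500 kb apart. TBX3, a T-box transcription factor, was mapped by ChIP-Seq in cultured mouse primary hepatocytes that carried the transposon construct pT2-SVNeo-EF1-eGFP-P2A-Tbx3-HA, which the EF1 promoter drives, so the protein was overexpressed and carried an HA tag. The 2 TBX3 ChIP libraries were made with an anti-HA antibody, and the 2 Input libraries were the same kind of sonicated chromatin without the antibody step. All 4 libraries carried the construct, and the labels give no strain, age or sex of the donor animals and no library of cells without the construct. The cells had been grown in expansion medium, transfected and selected with G418, and the data used here hold no RNA, so hepatocyte markers could not be checked in them.

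Cytochrome P450 enzymes are haem proteins that insert an oxygen atom into small lipophilic molecules. Those of families with many tandem copies, such as Cyp2a, Cyp2b, Cyp2c, Cyp2d and Cyp3a, mostly oxidise drugs, plant toxins and steroids, and hepatocytes are where most of this oxidation takes place. The Cyp4 enzymes hydroxylate the end carbon of fatty acids, and the single-copy enzymes such as Cyp7a1, Cyp27a1 and Cyp27b1 each take a fixed step in the synthesis of bile acids, steroid hormones or vitamin D. Many of the drug-oxidising enzymes are most abundant in the hepatocytes around the central vein, which is also where TBX3 is found in the liver. The comparison asks whether ChIP reads piled up over the Input level at these genes.

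The measurement was 1 deposited track, in which every base carries a score, the −log10 of the Poisson probability of its ChIP read pileup given the level expected from Input. The track holds no value per library, so no replicate error can be given for any score and nothing below was tested between replicates. The number of reads behind each score was inferred from the score itself. Where Input does not exceed the genome-wide level of 2.43 reads, 6 reads over a base give a score of 1.90, 7 give 2.44, 8 give 3.02, 12 give 5.75 and 14 give 7.31. Scores of different genes therefore share a few fixed values, and neighbouring steps are 1 read apart. As a scale, the site at E2f7, a gene the study examined, reached 22.79 with 31 reads against 2.69 expected, and that at E2f8 reached 15.53 with 23 reads.

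No P450 gene came near the scores of those sites. The highest score within 1 kb of either gene end, called the gene end score, ranged over the 89 genes from 1.00 to 5.75 with a median of 2.37, beside a median of 2.44 for all protein-coding genes. The 95% order-statistic interval of the members' median ran from 1.90 to 2.44. It covers only the spread over genes and treats them as independent, which neighbouring genes are not. At a gene end score of at least 5 there were 3 P450 genes (3.37%), against 3.6% of all protein-coding genes. Over the same chromosomes, weighted by how many P450 genes each holds, the share of protein-coding genes was 4.29% and the median gene end score 2.25. At 3 or more there were 23 P450 genes (25.8%) against 29.1% of all genes. None of the 89 gene ends carried more than 12 inferred reads at its highest base. The commonest score was 1.90, which 21 P450 genes (23.6%) and 19.2% of all genes shared, and 15 (16.9%) stood at 2.44 against 17.7% of all genes. These shares lie near the background of all genes.

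**Figure D1:**
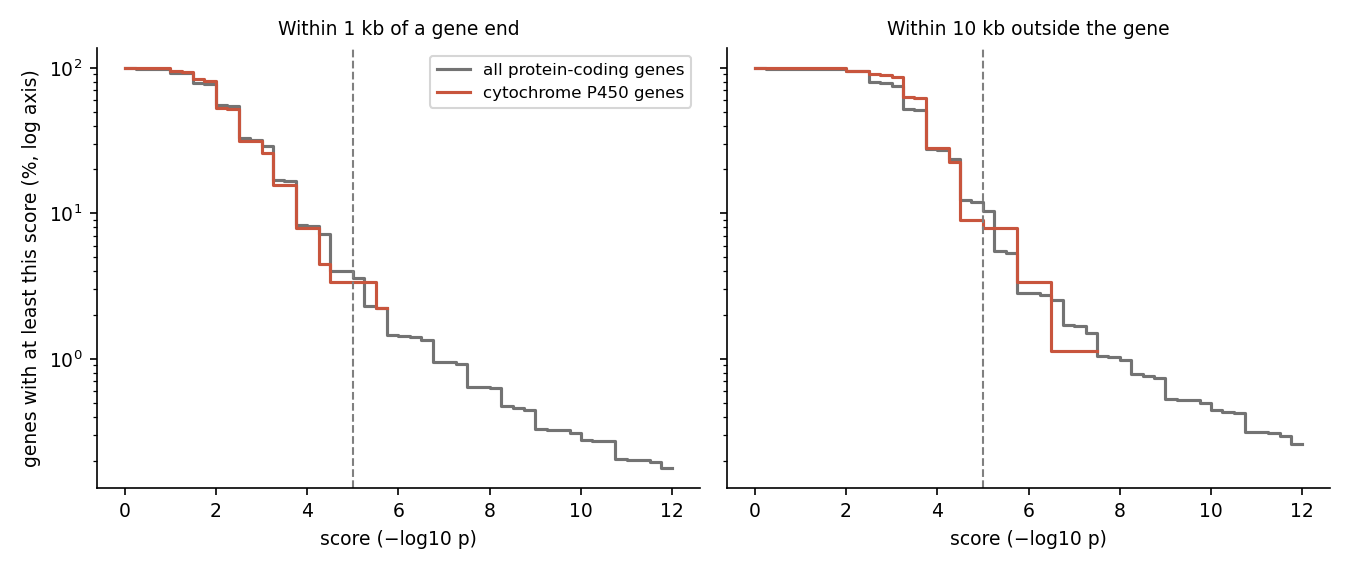
Share of genes (%, log axis) whose highest score reaches each value (−log10 p), for the 89 cytochrome P450 genes (red) and all 21883 protein-coding genes (grey), within 1 kb of a gene end (left) and within 10 kb outside the gene (right). The dashed line marks a score of 5. Shares were drawn in score steps of 0.25. The red lines end within that distance of the highest P450 score, 5.75 at gene ends and 7.31 in the flanks, while the grey lines go on.

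In the flanks, which reach 10 kb outward from both gene ends, the highest score had a median of 3.65 over the P450 genes and 3.55 over all protein-coding genes. A flank score of at least 5 was found at 7 P450 genes (7.87%), beside 10.3% of all protein-coding genes and 11.05% when weighted by chromosome. Inside the gene, a score of at least 5 was found at 10 P450 genes (11.2%), beside 13.9% of all genes. The median gene length, which sets how many bases were searched, was 22.5 kb for the P450 genes and 17.2 kb for all genes. Called regions are runs of bases at a score of at least 5 that span 200 bp or more. Within 10 kb, 0 of the 89 P450 genes and 0.672% of all protein-coding genes had one. The called region nearest to any P450 gene lay 146 kb from Cyp3a59, and the median distance over the 89 genes was 4794 kb. The whole track held only 125 called regions. Distances were not worked out for all protein-coding genes, so these values do not set the P450 genes apart.

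The 3 P450 genes with a gene end score of at least 5 were all counted as foreign compound metabolism, as were 51 of the 89 genes. Cyp3a44 (gene 337924, chromosome 5 from 145773983 to 145805891), a member of the subfamily that hydroxylates drugs and steroids, reached 5.75 with 12 inferred reads against 2.43 expected. Its highest base lay 434 bp outside the end with the higher coordinate, between annotated genes, and the run of bases at 5 or more was 20 bp long. Cyp1b1 (gene 13078, chromosome 17 from 79706940 to 79715061), which oxidises aryl hydrocarbons and estrogens, also reached 5.75 with 12 reads against 2.43, at 931 bp outside its higher end, over a run of 49 bp. Cyp2d12 (gene 380997, chromosome 15 from 82555043 to 82559413), of the drug-oxidising Cyp2d subfamily, reached 5.48 with 12 reads against 2.58, at a base 928 bp inside the gene from its lower end, in a run of 7 bp. At the opposite ends of these genes the scores were 1.07, 1.42 and 1.19, so each site lay at a single end. The annotation used here has no strand and does not tell which end is the transcription start. Just below the cutoff, Cyp2a4 stood at 4.31 and Cyp2c23, Cyp2c38 and Cyp3a16 at 4.22, 4.20 and 4.07, each with 10 reads, so 2 reads separated them from the 3 genes above it. A harsher count divided the inferred pileup, rounded down, and the expected level by 2 at every base. Read pairs themselves were not counted, since the track holds none. The scores of Cyp3a44, Cyp1b1 and Cyp2d12 were then 3.56, 3.56 and 3.41 and none reached 5. Divided in the same way, E2f7 scored 11.83 and E2f8 8.14. With windows of 500 bp only Cyp3a44 reached 5.

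Around these summits the pileup was of similar width to that at E2f7, with reads extended to 150 bp. Counted from the summit outward, it stayed at or above 50% of the summit's reads over 184 bp at Cyp3a44, 183 bp at Cyp2d12 and 239 bp at Cyp1b1, against 220 bp at E2f7. Within 1 kb on each side the mean pileup at Cyp3a44 was 2.40 reads where 3.41 were expected, and at Cyp2d12 it was 3.33 where 3.63 were expected. At Cyp1b1 the mean pileup of 3.20 exceeded the expected 2.56, and a second shoulder stood beside the summit. At E2f7 the same window held 5.70 reads against 2.83. Inside all protein-coding genes the mean pileup had a median of 1.69 reads and the expected level one of 2.78. The ratio of pileup to expected level had a median of 0.597. No gene had a mean expected level below 2.43 reads. A mean pileup below the expected level was thus usual, and the values at Cyp3a44 and Cyp2d12 do not show a depletion of reads there.

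**Figure D2:**
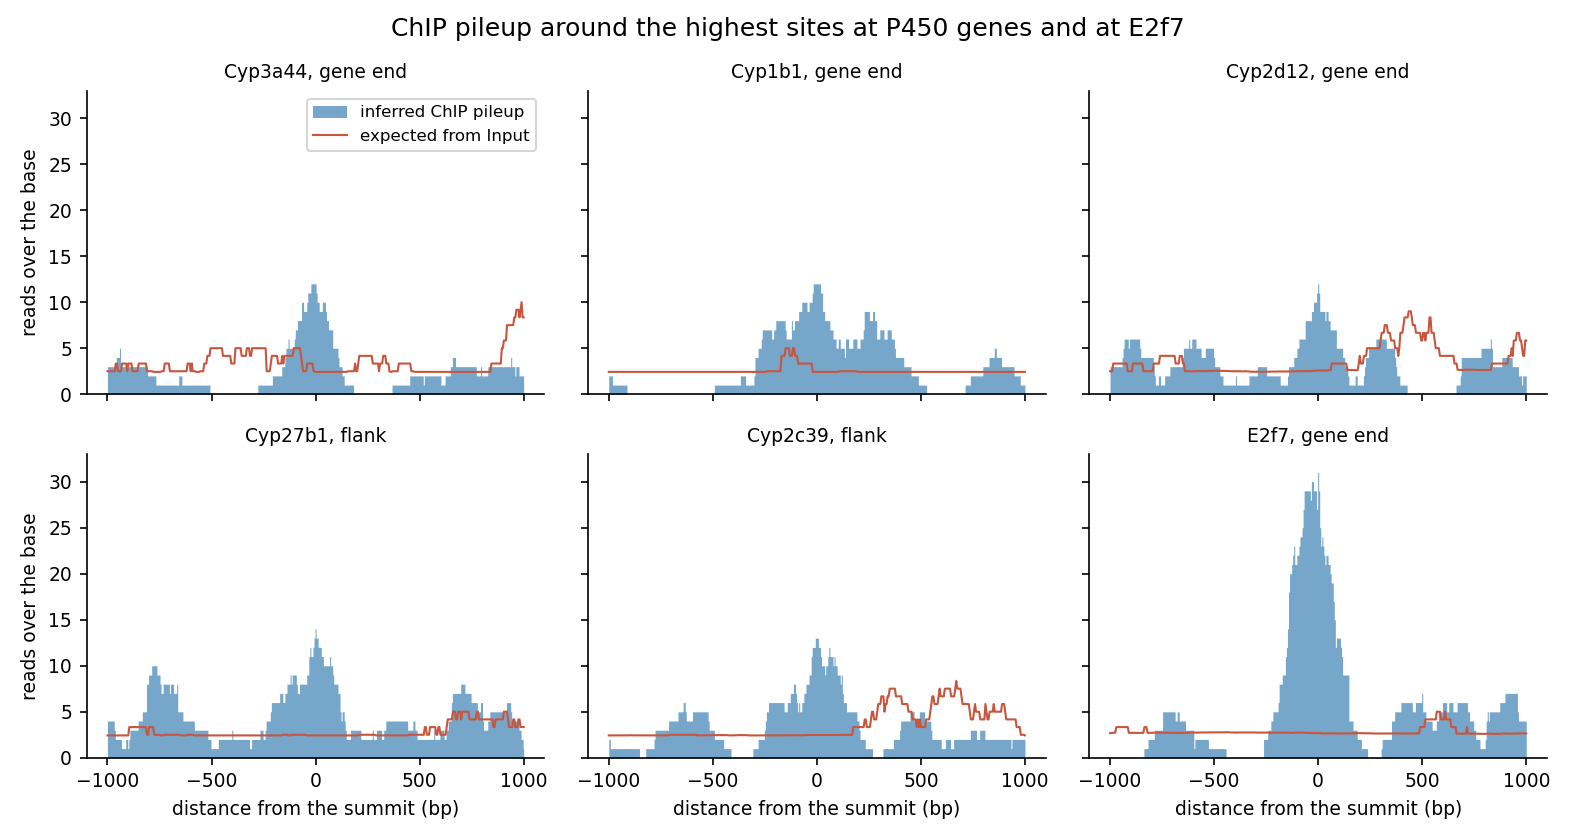
Inferred ChIP pileup (blue) and level expected from Input (red), in reads over the base, by distance from the summit in bp, at 5 P450 sites and at E2f7. The summits at the P450 genes hold 12 to 14 reads and that at E2f7 holds 31, on the same axis.

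The highest score near any P450 gene was at Cyp27b1 (gene 13115, chromosome 10 from 127048246 to 127054884), the enzyme that activates vitamin D by hydroxylation. In its flank the score reached 7.31 with 14 reads against 2.43, over a run of 101 bp, the longest of the 21 runs at a score of at least 5 near these genes. That summit lay 8273 bp outside Cyp27b1 and 378 bp from an end of Cdk4, which encodes a cyclin-dependent kinase of the G1 phase, so its position does not assign it to Cyp27b1. Of all protein-coding genes, 1.51% had a flank score as high. Inside Cyp27b1 a second run of 24 bp reached 6.05 with 13 reads against 2.67, while its gene end score was 2.86. The gene lies on the most deeply covered chromosome, whose mean pileup was 1.41 times the autosome median, and 10.6% of its own bases had no inferred read, the lowest share of the 89 genes. With the expected level raised to the depth of the chromosome, the flank summit scored 5.48, the summit inside the gene 4.83 and the gene end 2.54. The gene end score of E2f7, on the same chromosome, was 19.75 by that measure.

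The other flanks at 5 or more belonged to genes of tandem clusters, apart from Cyp1b1. Cyp4a10, a fatty acid hydroxylase induced through the receptor PPAR alpha, reached 6.37 with 13 reads against 2.50 at 5866 bp beyond its higher end. The same gene's end score was 3.02, and the other 6 genes of its cluster had flank scores between 1.90 and 3.65. In the Cyp2c cluster, Cyp2c39 reached 6.42 with 13 reads against 2.48, Cyp2c66 reached 5.75 with 12 against 2.43 and Cyp2c67 reached 5.61 with 12 against 2.50. Their summits lay 3523, 6847 and 3352 bp outside the genes, and their gene end scores were 2.92, 3.02 and 2.44. With the expected level raised to the depth of chromosome 19, the same summits scored 5.64, 4.95 and 4.95, so only that of Cyp2c39 remained at 5 or more. That step only raised expected levels, so Cyp4a10, on chromosome 4 with 0.699 times the autosome median pileup, stayed at 6.37. On chromosome 4, 34 of the 1328 protein-coding genes had a flank score of at least 5. On chromosome 19 these were 149 of 705. The flank score of Cyp3a44 was its gene end summit, as was that of Cyp1b1. Just under the cutoff, Cyp39a1, an oxysterol hydroxylase, had a flank score of 4.89.

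In all, 21 separate runs at a score of at least 5 lay in or within 10 kb of the 89 genes. They were 1 to 101 bp long, with a median of 20 bp, and the 12754 runs of the whole track had the same median. The 4.09 Mb that these genes and their flanks cover held 5.14 runs per Mb, beside 4.68 per Mb over the track. The second rate was taken over all bases of the 21 chromosomes and was not weighted by chromosome. It includes chromosome Y, where 97.5% of bases had no inferred read. Of the 10 genes with such a run inside, 5 were among the 15 Cyp2c genes, beside 165 of the 705 protein-coding genes of chromosome 19. The median gene length, and so the number of bases searched, was 40.2 kb for Cyp2c and 15.3 kb for that chromosome. The 5 scores were 6.37 at Cyp2c39, 5.75 at Cyp2c67, 5.30 at Cyp2c54 and 5.01 at Cyp2c38 and Cyp2c40. With the expected level raised to chromosome depth these were 5.64, 4.95, 4.95, 4.29 and 4.29. The run at 5.01 in Cyp2c38 is also counted at Cyp2c39, whose annotated span from 39347346 to 39569568 on chromosome 19 contains all of Cyp2c38. The remaining genes were Cyp20a1 at 5.61, Cyp3a13 and Cyp19a1, which encodes aromatase, both at 5.01, and Cyp27b1 and Cyp2d12, given above.

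**Figure D3:**
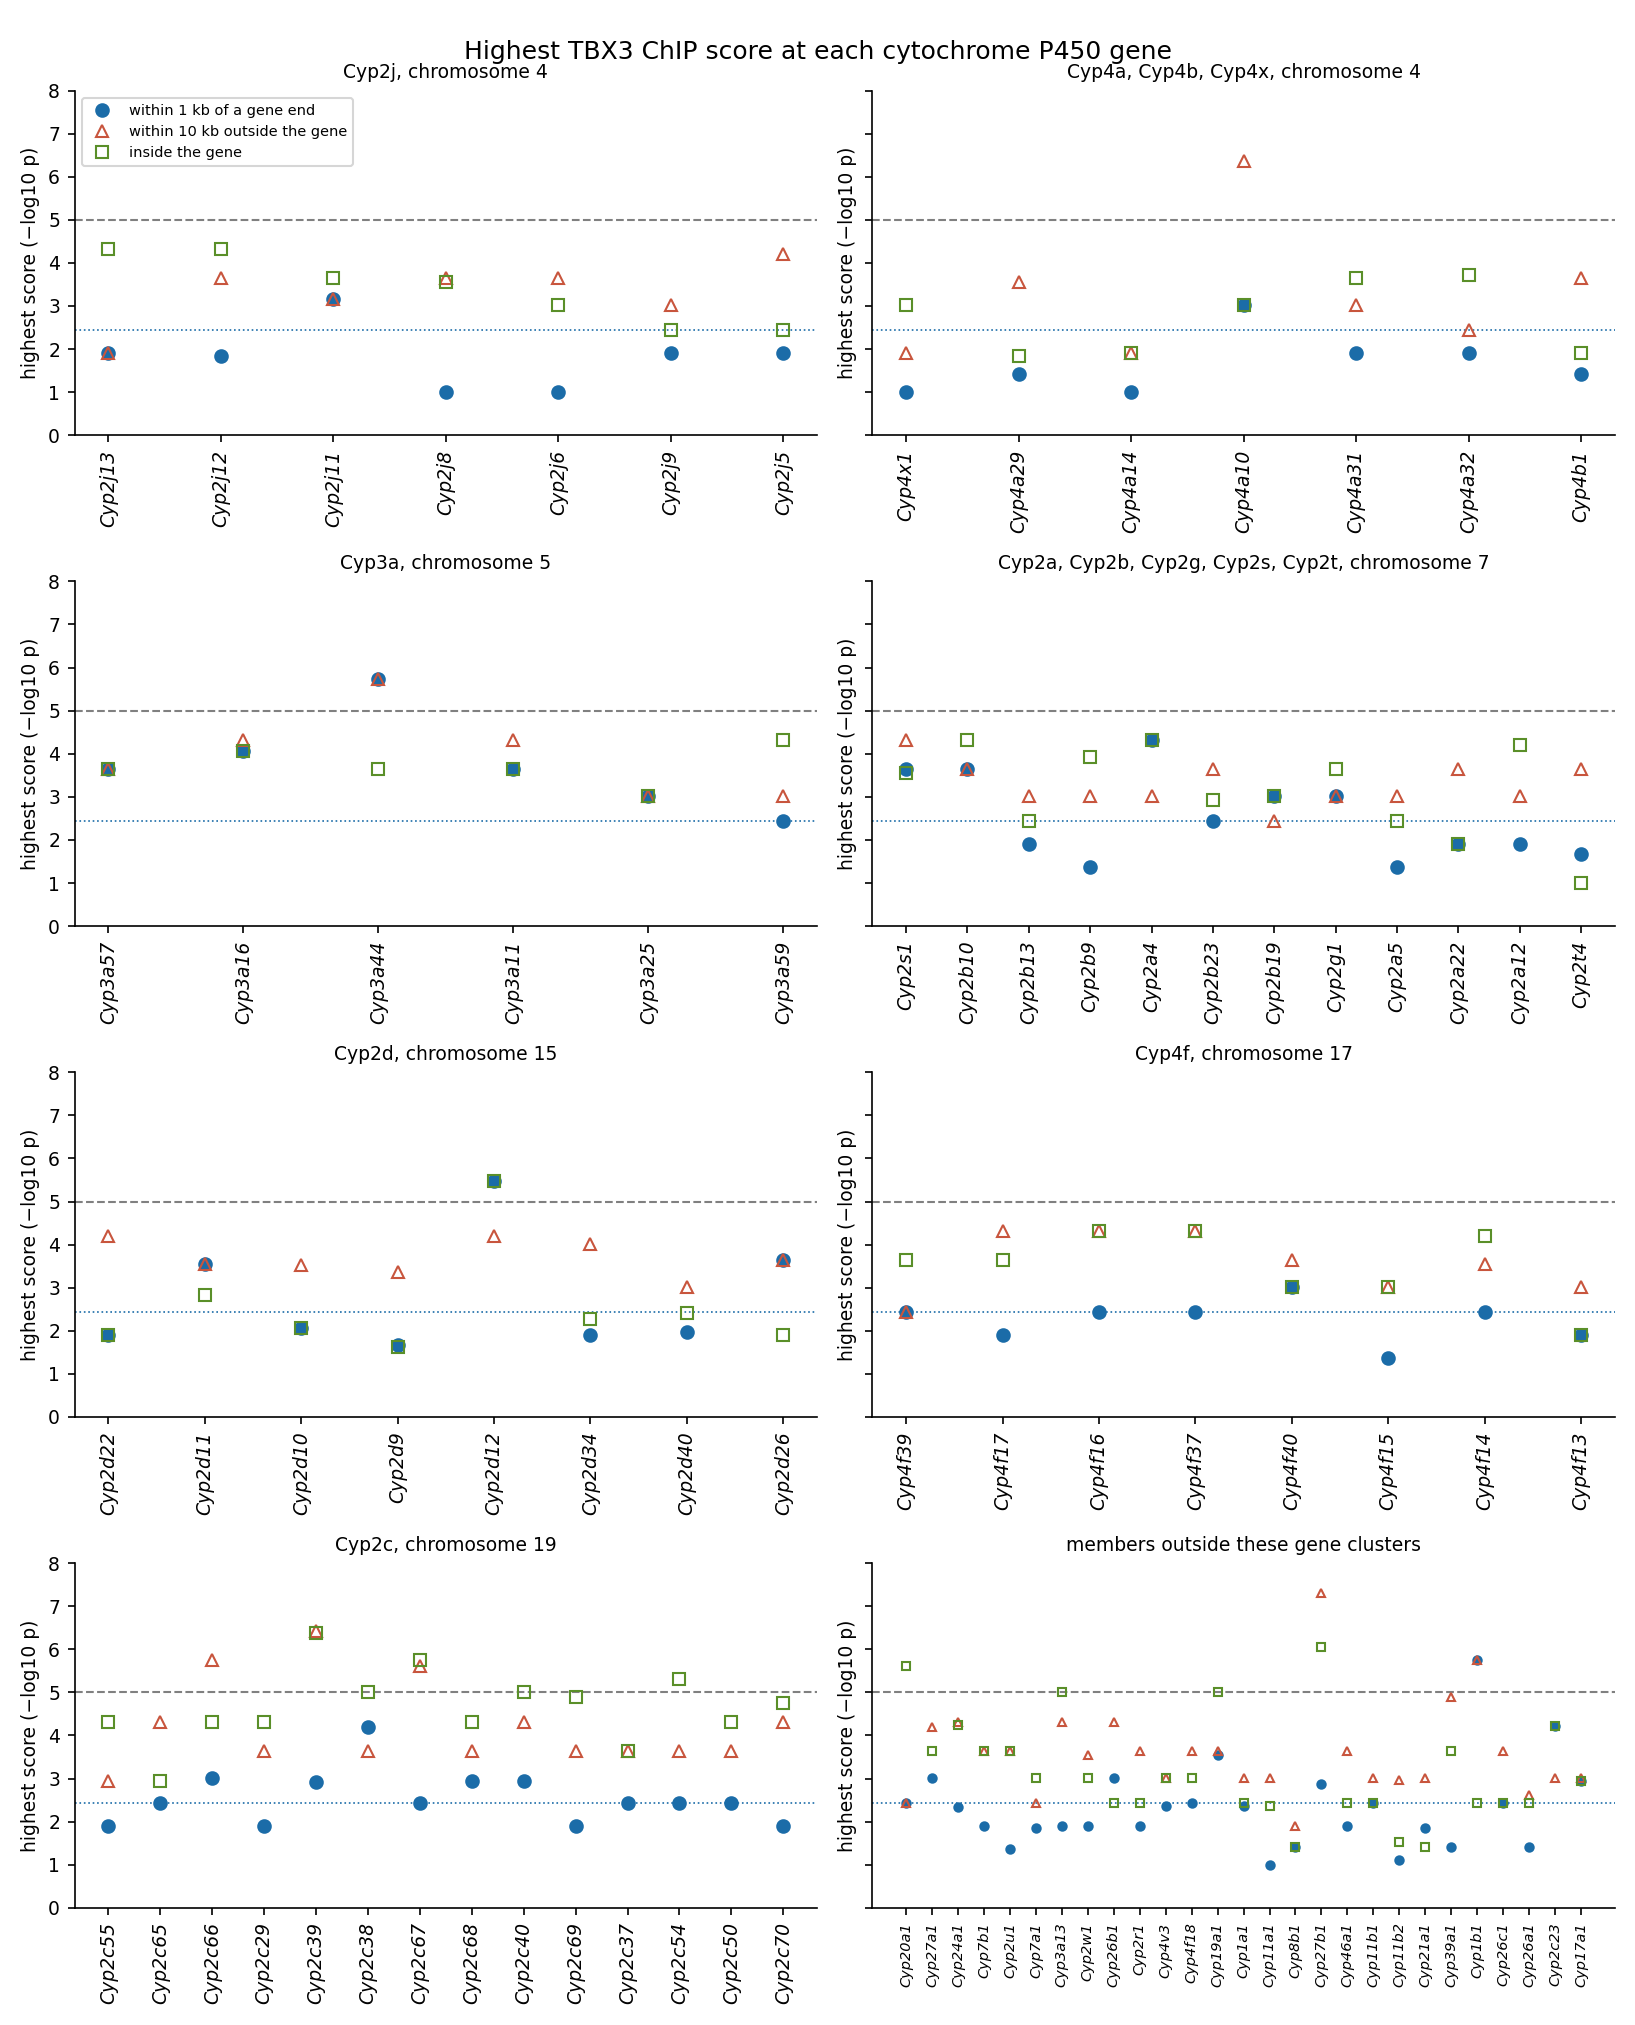
Highest score (−log10 p) at each of the 89 P450 genes within 1 kb of a gene end (filled circles), within 10 kb outside the gene (triangles) and inside the gene (squares), in chromosomal order for the 7 gene clusters and, in the last panel, for the other 27 genes. The dashed line marks a score of 5 and the dotted line the median gene end score of all protein-coding genes, 2.44. The highest circles are Cyp3a44, Cyp1b1 and Cyp2d12, and the highest triangle is Cyp27b1.

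Among the gene clusters, the 6 neighbouring Cyp3a genes on chromosome 5 had the highest gene end scores. In chromosomal order these were 3.65 at Cyp3a57, 4.07 at Cyp3a16, 5.75 at Cyp3a44, 3.65 at Cyp3a11, 3.02 at Cyp3a25 and 2.44 at Cyp3a59. The median of 3.65 compares with 2.44 for the genes of chromosome 5. Of the 6 genes, 5 lay above that value, where 36.4% of the protein-coding genes of chromosome 5 lay above it. Cyp3a13, which lies apart on the same chromosome, scored 1.90. The Cyp3a genes also had more reads throughout: the mean pileup inside the gene had a median of 2.08 reads, beside 1.73 for the genes of the chromosome, and all 6 genes exceeded that chromosome median. The level expected from Input was 2.90, beside 2.83 for the chromosome. The part of this depth in the gene end scores was not tested.

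The Cyp2c cluster on chromosome 19, whose enzymes oxidise drugs and arachidonic acid, held 14 genes over 1180 kb. Its gene end scores ranged from 1.90 at Cyp2c55, Cyp2c29, Cyp2c69 and Cyp2c70 to 4.20 at Cyp2c38, with a median of 2.44, beside 2.94 for chromosome 19. The genes were covered by a median of 2.31 reads per base, slightly above the 2.14 of that chromosome, and 13 of the 14 exceeded it. The cluster thus had a median gene end score below that of its chromosome and a pileup just above it. The gap in gene end score is small: 7 reads give 2.44, and 8 reads against 2.50 expected give 2.94. The highest score inside the gene went the other way, with a median of 4.53 beside 3.65 for chromosome 19. Median gene lengths were 42.0 and 15.3 kb.

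The Cyp2d cluster on chromosome 15, of 8 short genes, had a median gene end score of 2.02, from 1.66 at Cyp2d9 to 5.48 at Cyp2d12, with Cyp2d26 at 3.65 and Cyp2d11 at 3.55. Its Input was high: the mean expected level inside the genes had a median of 3.38 reads, 1.17 times the chromosome's 2.89, and 7 of the 8 genes exceeded the chromosome. Most genes of every other cluster also exceeded the expected level of their chromosome, but the cluster medians were at most 1.04 times it. The 2 Cyp11b genes, also on chromosome 15, had a median 1.29 times that of the chromosome. The pileup of the Cyp2d genes, with a median of 1.85, equalled that of the chromosome to 2 decimals. Cyp2d12 had the highest expected level of the 8, 3.67, and Cyp2d40 the highest pileup, 2.95.

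On chromosome 7, the 12 genes of the cluster of Cyp2a, Cyp2b, Cyp2g, Cyp2s and Cyp2t had a median gene end score of 2.17, beside 1.90 for the chromosome. The highest was Cyp2a4 at 4.31, a steroid hydroxylase gene, with 10 reads at a base 878 bp inside the gene. The lowest were Cyp2b9 and Cyp2a5 at 1.37. The phenobarbital-inducible Cyp2b10 reached 3.65 with 9 reads at 350 bp outside the gene. Cyp2t4 was the most thinly covered of the 89 genes, with a mean pileup of 0.74 reads and 62.2% of its bases without an inferred read.

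Both clusters on chromosome 4 had lower median gene end scores than the other 5. The 7 Cyp2j genes, which encode arachidonic acid epoxygenases, had gene end scores from 1.00 at Cyp2j8 and Cyp2j6 to 3.15 at Cyp2j11, with a median of 1.90. The 7 genes of Cyp4a, Cyp4b and Cyp4x, whose enzymes oxidise fatty acids, had scores from 1.00 at Cyp4x1 and Cyp4a14 to 3.02 at Cyp4a10, with a median of 1.42. Chromosome 4 had the lowest coverage of the autosomes, with a mean pileup 0.699 times the autosome median, and its protein-coding genes also had a median gene end score of 1.42. Against that value 5 of the 7 Cyp2j genes and 3 of the 7 Cyp4 genes were higher. The 8 Cyp4f genes on chromosome 17, which hydroxylate leukotrienes and fatty acids, ranged from 1.37 at Cyp4f15 to 3.02 at Cyp4f40, with the median of 2.44 that chromosome 17 also had.

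**Figure D4:**
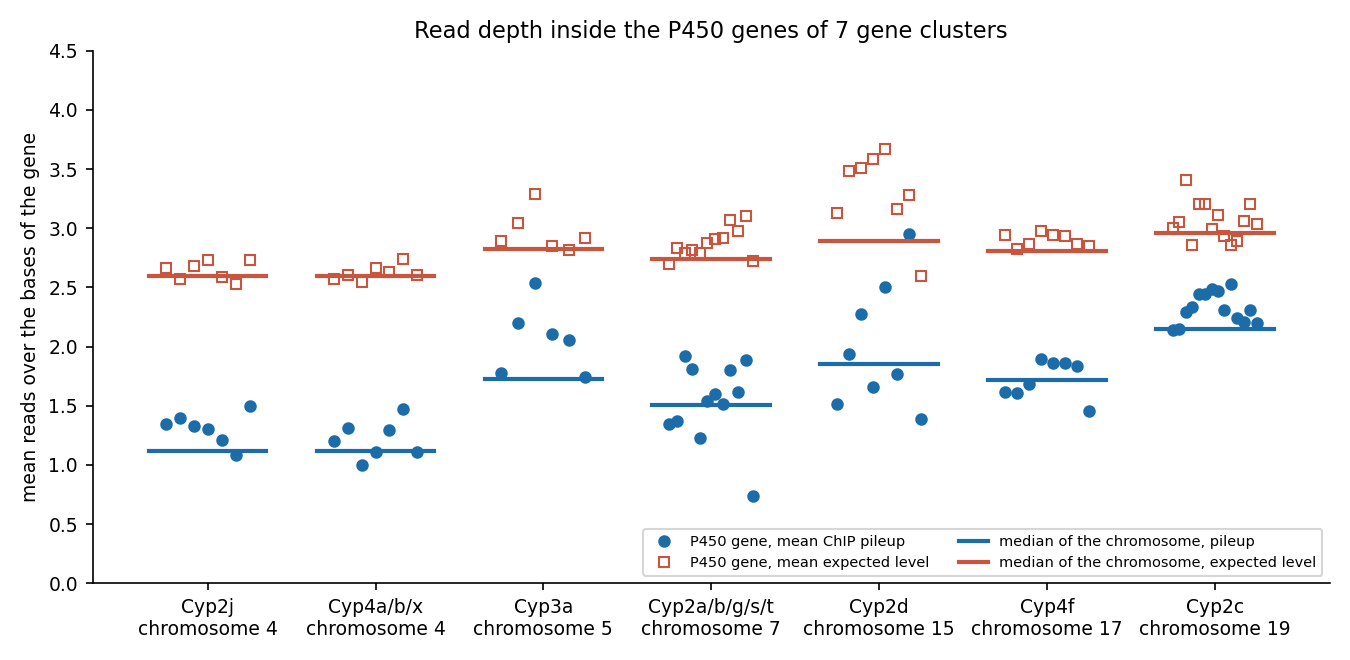
Mean inferred ChIP pileup (filled circles) and mean level expected from Input (open squares) over the bases of each P450 gene, in reads, for the 7 gene clusters in chromosomal order, with horizontal lines at the medians of all protein-coding genes of the chromosome. The Cyp3a circles and most of the Cyp2c and Cyp2j circles lie above their lines. In each cluster most squares lie above their line, with the largest median excess at Cyp2d. Both clusters of chromosome 4 have the fewest reads.

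By role, the 51 genes counted as foreign compound metabolism, the Cyp2j and Cyp2c genes included, had a median gene end score of 2.44. They are most of the 89 genes and held all 3 genes at 5 or more, where 3.6% of all protein-coding genes stood. The smaller roles hold too few genes for their lack of such a score to set them apart. The 18 fatty acid hydroxylase genes had a median of 1.90 and a highest score of 3.02, shared by Cyp4a10 and Cyp4f40. The 6 genes of sterol and bile acid metabolism had a median of 1.87. Cyp7a1, the rate-limiting enzyme of bile acid synthesis, stood at 1.84 with 6 reads against 2.50, Cyp8b1, the sterol hydroxylase that shapes the bile acid pool, at 1.42, and Cyp27a1 at 3.02. The 6 steroid hormone genes had a median of 2.14, from 1.00 at Cyp11a1, the side-chain cleavage enzyme, to 3.55 at Cyp19a1. The 6 vitamin D and retinoic acid genes had a median of 2.39, from 1.42 at Cyp26a1 to 3.02 at Cyp26b1. Cyp1a1, the gene that the aryl hydrocarbon receptor induces, reached 2.37 with 7 reads. The other 2 genes, Cyp20a1 and Cyp2w1, counted as orphan enzymes, had a median of 2.17. All these medians lie between about 6 and 7 reads at the genome-wide level. Role and chromosome coincide in part and cannot be told apart where they do. The thinly covered chromosome 4 holds 7 of the 18 fatty acid genes, and also the 7 Cyp2j genes of the foreign compound role and Cyp7a1.

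**Figure D5:**
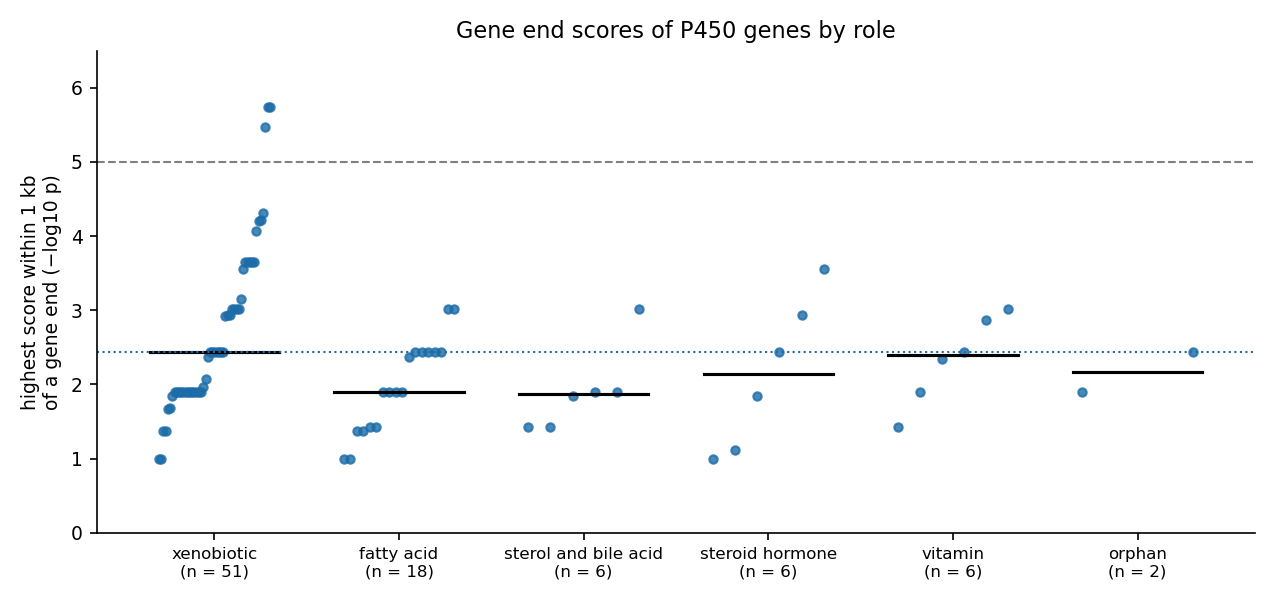
Gene end scores (−log10 p) of the 89 P450 genes by role, 1 point per gene, with a black line at the median of each role. The dashed line marks a score of 5 and the dotted line the median of all protein-coding genes, 2.44. The 3 points over 5 belong to the foreign compound role (xenobiotic), which holds 51 of the 89 genes, and no fatty acid gene exceeds 3.02.

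Many tandem P450 genes have closely similar copies, and how uniquely reads map to them was not tested. The share of gene bases with no inferred ChIP read had a median of 34.9% over the P450 genes, beside 34.3% for all protein-coding genes. The 95% order-statistic interval of the first median over genes, which again treats them as independent, was 31.2 to 38.0%. Mean pileup inside the gene had a median of 1.65 reads against 1.69 for all genes, and the expected level was 2.86 against 2.78. The expected level exceeded the median of the gene's own chromosome at 64 of the 89 genes (71.9%), where 49.4% of all protein-coding genes did so, and the pileup at 52 (58.4%) against the same 49.4%. In the Cyp2c cluster the highest expected level at a base was 14.2 reads, in Cyp2c68, Cyp2c40 and Cyp2c69, where the ChIP pileup was 5, 9 and 8 reads. Averaged over the gene, the expected level had a median of 3.04 reads in that cluster, beside 2.96 for chromosome 19. In Cyp2c39, 4495 bases had an expected level at least 3 times the genome-wide level, and Cyp2c38 had 1752 and Cyp2c66 1540. A pileup at such bases needs more reads for the same score. These are counts and not shares of the gene, and the span of Cyp2c39 contains Cyp2c38. The Cyp2c genes had a median length of 40.2 kb beside 22.5 kb for the 89 genes. Neither this count nor the highest expected level at a base was worked out for all protein-coding genes. Cyp11b2, of aldosterone synthesis, had the highest mean expected level of the family, 3.99 reads, which 1.05% of all protein-coding genes reached, and a gene end score of 1.11.

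The genes that P450 enzymes work with were read in the same way. In a list of 21 genes of electron donors, haem metabolism and P450 regulators, none had a gene end score of at least 5, beside 3.6% of all protein-coding genes, and the median was 2.44. The highest gene end score was 3.02, shared by Cyb5b, Pgrmc1, Fech, Hmox1, Arnt, Ppara and Hnf4a. The lowest was 1.00, at Fdx1, Alad, Ahr and Nr0b2. Por, the reductase that passes electrons to microsomal P450 enzymes, reached 2.44, as did the constitutive androstane receptor gene Nr1i3, and the pregnane X receptor gene Nr1i2 reached 2.37. Pgrmc1, a haem-binding partner of P450 enzymes, had the single flank score over 5, at 5.61, where 10.3% of all genes had one. Inside the gene, 6 of the 21 (28.6%) reached 5, beside 13.9% of all genes, with a median gene length of 32.6 kb beside 17.2 kb. They were Cyb5r3, which reduces cytochrome b5, at 15.53, Hnf4a at 5.75, and Fech, Ahr, Ahrr and Rxra at 5.01. The site inside Cyb5r3 was a called region, and its score equalled that at E2f8. The gene end score of Cyb5r3 was 2.44.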

How the data were processed

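The authors mapped the reads with Bowtie2, sorted them with SAMtools and made the track with MACS2 on mm10, which is GRCm38, per the paper's methods and the submitters' processing notes. Versions, duplicate handling and which of the 4 libraries entered the track are not given in the sources used here. The deposited values are −log10 p-values per base, with 0 further per-sample columns.

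Genes came from RefSeq GRCm38.p6, whose table here has no strand or sequence, so both gene ends were used, and promoter motifs and protein identities, which had been planned, were not analysed here. The pileup and the expected level were inferred per base as a read number and an Input level whose Poisson tail equals the score, choosing along the chromosome the pairs that change least. Reads extended to 150 bp and Input windows of 1000 and 10000 bp were set in advance. The Input scale of 0.835 and the genome-wide level of 2.43 reads were fitted to the scores. The inferred total was 30091896 ChIP reads. The depth of each library is unknown. The steps were tested on simulated data with the true level and scale given, so the fit of these was not tested. A pair of levels was found for all of the 2722472431 bases of the 21 main chromosomes. The allowed Input levels are closely spaced, so finding a pair does not check that it is right.

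Called regions joined runs at 5 or more across gaps up to 30 bp and had a minimum length of 200 bp. With 1 track there is no test: counts and medians of the P450 genes stand beside those of all protein-coding genes. Neighbouring genes can share windows and are not independent. Every P450 gene could be named. Full values went to those with a gene end or flank score of at least 5, the highest scores and the extremes of each gene cluster. The genes and lists were chosen with earlier results of these data known. Computation used numpy 2.4.6, numba 0.67.0, pandas 2.3.3 and scipy 1.17.1 in Python 3.11.15, and plots used matplotlib 3.10.9.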

Additional observations from a re-analysis of the deposited data

How the results depend on the processing

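The count of 3 P450 genes with a gene end score of at least 5 became 1 with windows of 500 bp (2.55% of all genes). It was 23 at a cutoff of 3 (29.1% of all genes) and 0 at a cutoff of 10 (0.279%). It was 0 when each window was averaged, where the share of all genes was also 0%. It was also 0 with the inferred pileup and the expected level divided by 2 (0.452%). It stayed at 3 with windows of 2 kb, where the share of all genes rose from 3.60% to 5.19%, and with the looser symbol rule of 96 genes. It also stayed at 3 with the expected level raised to chromosome depth (2.50% of all genes) and at the score of 5.46 that an adjusted p of 0.05 over all bases gives (2.25%), so the members' 3.37% lay below the background in some settings and above it in others. The median gene end score of 2.37 became 2.94 with 2 kb windows, where all genes stood at 2.62, and 0.327 with the mean score (0.333 for all genes). With pileup and expected level divided by 2 it became 1.45, which was also the value of all genes. The count of 7 genes with a flank score of at least 5 became 4 with flanks of 5 kb (5.99% of all genes) and 13 with 20 kb (17.8%). It was 77 at a cutoff of 3 (74.8%) and 0 at a cutoff of 10 (0.443%). The median flank score of 3.65 became 3.02 with 5 kb, the same as for all genes, and 0.342 with the mean score. The absence of called regions within 10 kb changed to 1 gene, Cyp27b1, at a cutoff of 3 (3.01% of all genes) and at a minimum length of 100 bp (2.56%), which is 1.12% of the members. Of 32 alternatives, the other 16 stayed within 1.5 times the reported count or within the spread of the reported median. The cause of these changes was not tested. The division by 2 and the raised expected level, at gene ends and at the summits of runs, were chosen after seeing the data.

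The planned share of bases with a score of exactly 0 had a median of 0 in every setting, so the share without inferred reads was used. A base without reads scores 0.04 at the genome-wide level and less where Input is higher, such as 0.003 at 5.01 expected reads. Only 0.002% of the bases of the track scored exactly 0. The planned limitation to the gene start was not run, for want of strand. No paired analysis was possible because values per library are not in the track, and for the same reason no replicate could be left out. A difference of 1 read, from 7 to 8, moves a score from 2.44 to 3.02, so genes 1 step apart cannot be told apart.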
